A study of Rattus norvegicus with 36 samples.

Results

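The comparison set the miRNAs of blood serum against those of the nucleus accumbens (NAc), which lies in the ventral striatum, in rats that had self-administered saline. Members were set by their labels, with earlier results of these data known. They were 12 of the 36 small RNA libraries in the study, 6 from serum and 6 from NAc, numbered 7 to 12 in each tissue. Every one of the 861 miRNA names in the count table was kept. The libraries came from adult male Sprague Dawley rats, 8 weeks old when they arrived. After 1 week in the facility each was given a jugular catheter, and after 1 further week it self-administered saline for 10 days. Blood and brain were taken no more than 60 min after the last session. Serum RNA came from trunk blood with a kit for exosomal RNA, and NAc RNA was total RNA extracted with Trizol, so tissue and extraction cannot be told apart in any difference below. A second set of 12 libraries, from serum and NAc of rats with the same surgery that took heroin at 0.075 mg/kg per infusion in 10 daily sessions of 6 hours, was used as a repeat in other animals. The labels call the libraries biological replicates and tie no number to a single animal in both tissues.

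A mature miRNA is a short RNA that guides an Argonaute protein to messenger RNAs, which it recognises mainly through its seed, bases 2 to 8 from the 5' end. Each hairpin precursor gives a 5p and a 3p arm, and related miRNAs that share a seed share many targets. Many miRNAs are made mostly in 1 cell type. Red cells hold miR-451 and miR-486, striated muscle miR-1, miR-133 and miR-206, hepatocytes miR-122, myeloid cells miR-223, and neurons miR-9, miR-124, miR-128 and the many miRNAs of the imprinted Dlk1-Dio3 cluster. In serum, miRNAs travel in vesicles, on proteins or in lipoprotein particles, and come from many organs.

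The sequences below carry the contrast. They are rat mature miRNAs from RefSeq (GRCr8), written 5' to 3' with the seed in capitals. The first set holds some of the names that were high in serum, and miR-1-3p and miR-206-3p in it share 1 seed:
miR-1-3p: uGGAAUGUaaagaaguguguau
miR-206-3p: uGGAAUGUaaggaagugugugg
miR-133a-3p: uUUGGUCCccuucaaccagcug
miR-451-5p: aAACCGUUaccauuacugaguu
miR-144-3p: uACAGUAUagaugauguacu
miR-122-5p: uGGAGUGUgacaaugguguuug
miR-223-5p: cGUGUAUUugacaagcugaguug
miR-142-5p: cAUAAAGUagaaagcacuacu

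The second set holds some of the names that were high in NAc, and miR-7a-5p and miR-7b share 1 seed:
miR-9a-5p: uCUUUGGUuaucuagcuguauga
miR-7a-5p: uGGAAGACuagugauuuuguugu
miR-7b: uGGAAGACuugugauuuuguugu
miR-127-3p: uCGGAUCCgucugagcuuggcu
miR-129-5p: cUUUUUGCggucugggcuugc
miR-153-3p: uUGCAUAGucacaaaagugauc
miR-132-3p: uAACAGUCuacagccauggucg
miR-219a-2-3p: aGAAUUGUggcuggacaucugu

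The third set was abundant in both tissues. It holds the leading name of serum, miR-148a-3p, and a neuronal miRNA, miR-128-3p, that stayed abundant in serum:
miR-148a-3p: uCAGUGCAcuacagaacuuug
let-7i-5p: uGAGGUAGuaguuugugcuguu
let-7f-5p: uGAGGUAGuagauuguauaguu
miR-26a-5p: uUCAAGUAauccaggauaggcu
miR-128-3p: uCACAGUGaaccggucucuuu

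The 6 serum libraries held 157415 to 997040 counts and the 6 NAc libraries 6076068 to 24776772. One count therefore stood for 1.003 to 6.35 CPM in serum (counts rescaled so that each library sums to 1000000), and for at most 0.165 CPM in NAc. Serum libraries varied more than NAc libraries: over the tested names the median SD of log2 CPM was 1.05 in serum and 0.38 in NAc, with 6 libraries each. Serum libraries 10, 11 and 12 stood apart from 7, 8 and 9 in brain miRNAs, with miR-9a-5p at 133, 38.1, 39.3, 1068, 3195 and 766 CPM in libraries 7 to 12. Library 12 was also the lowest in miR-451-5p, miR-16-5p and miR-26a-5p, as given below. In NAc, miR-7a-5p was at 47764, 67491, 42062, 110992, 119338 and 116698 CPM in libraries 7 to 12, higher in the last 3 than in the first 3. No date, lane or batch is named in the labels. Without serum libraries 10, 11 and 12 the median of all tested names was -2.48, and 297 of the 424 names had a log2 fold change lower by more than a 1.5-fold change, with none that much higher. The median change of a name was -0.99, and the values given without these libraries include that shift.

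Most miRNAs differed between serum and NAc. With edgeR's quasi-likelihood test (adjusted p under 0.05, called "higher" or "lower" from here on), 143 of 424 tested names (33.7%) were higher in serum and 241 (56.8%) were lower, and 40 were not called. For 106 names (25%) every serum library lay above every NAc library, and for 202 (47.6%) every one lay below. These shares of all tested names are the background for the counts of list members below. The median log2 fold change, serum over NAc, was -1.91 over all tested names. It was 3.18 among the names called higher and -4.56 among those called lower. Another scaling of the libraries (RLE factors) lowered the median of all names to -2.54 and gave 123 higher and 259 lower, so each fold change below is best read against the median of all names. The other 437 names were too low to test. A name could be tested on NAc reads alone, and 134 of the 241 lower names had under 30 serum counts over the 6 libraries, 24 of them none. In bulk NAc, the number of cells of a type and their RNA per cell cannot be told apart. Serum RNA, from a kit for exosomal RNA, gives no measure of either.

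**Figure D1:**
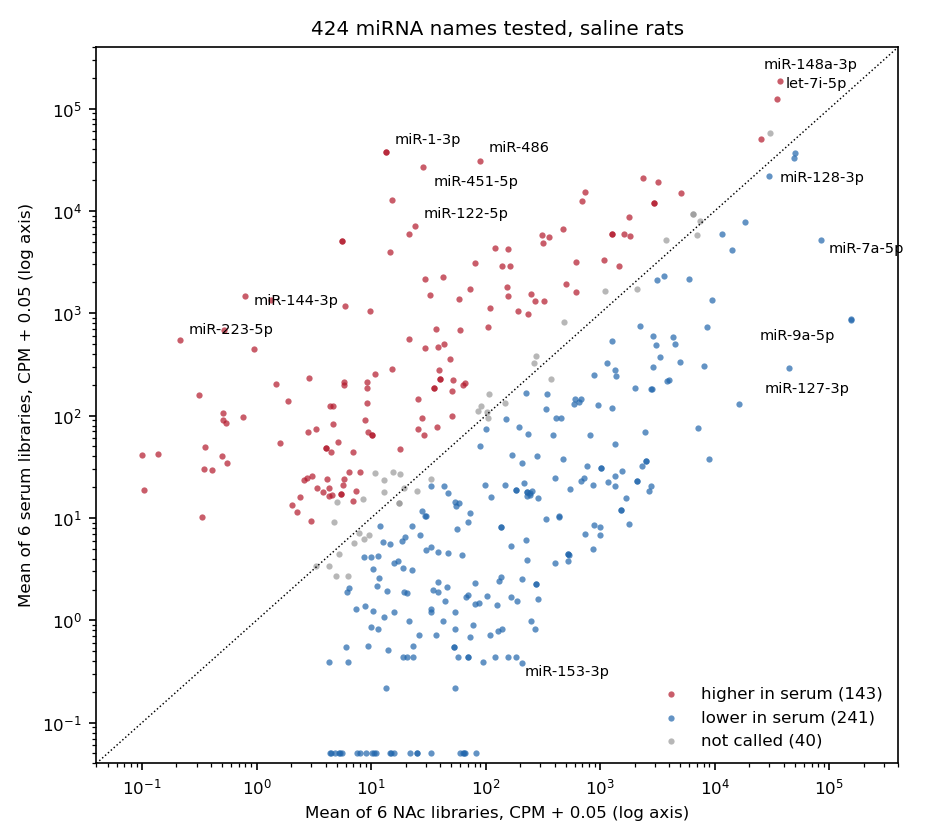
Mean level of the 424 tested miRNA names in the 6 serum libraries (vertical, CPM + 0.05, log axis) against the 6 NAc libraries (horizontal, same scale) of saline rats, coloured by the call. Red points are the 143 names higher in serum, blue points the 241 lower, and grey points the 40 not called. The dotted line marks equal levels, and the row of blue points at the bottom has no serum count.

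Serum and NAc libraries shared many leading names but gave most of their counts to names on opposite sides of the comparison. Names called higher in serum took 76.3 ± 6.88% of serum counts and 13.3 ± 1.36% of NAc counts (SD, n = 6 each). Names called lower took 13.6 ± 3.28% of serum counts and 79.9 ± 1.400% of NAc counts. Since the calls come from the same libraries, these shares describe them and test nothing. The leading name of serum, miR-148a-3p, took 18.5 ± 5.34% of serum counts and 3.74 ± 1.32% of NAc counts (SD, n = 6 each). It is widely made, and liver holds much of it. The leading name of NAc, miR-9a-5p, took 0.0873 ± 0.122% of serum counts and 15.5 ± 1.74% of NAc counts. Of the 10 leading names in each tissue, 6 were shared: miR-148a-3p, let-7i-5p, let-7g-5p, let-7f-5p, miR-26a-5p and miR-128-3p.

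Red cell miRNAs were the list with the largest median difference. All 4 measured members were higher in serum, with a median log2 fold change of 9.60, and each was higher in every serum library than in any NAc library. miR-451-5p, which Argonaute 2 cuts without Dicer and which red cell precursors make in bulk, had 4709 to 46406 CPM in serum (median 25345), against 13.6 to 44.4 CPM in NAc (median 29.5). The difference gave a log2 fold change 9.52 ± 0.63 (SE), adjusted p = 1.98e-09. Serum library 12 was the low one at 4709 CPM, still above every NAc library. miR-486, also a red cell miRNA, had 15919.9 to 40771 CPM in serum (median 33933), against 62.5 to 141 CPM in NAc (median 83.4) (log2 fold change 8.16 ± 0.43 (SE), adjusted p = 3.05e-10, and 7.27 without serum libraries 10 to 12). miR-144-3p, made from the same precursor transcript as miR-451, had 113 to 2851 CPM in serum (median 1484), against 0.256 to 1.26 CPM in NAc (median 0.714) (log2 fold change 10.50 ± 0.89 (SE), adjusted p = 1.59e-08). The 4 members summed to 36217 to 84832 CPM in serum, against 80.2 to 179 CPM in NAc. Whether red cells broke open when the blood was drawn or clotted was not tested.

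Striated muscle miRNAs came close to that difference. All 6 tested members of 8 were higher in serum (median log2 fold change 8.999), with every serum library above every NAc library, and they summed to 15729 to 105269 CPM in serum, against 38.2 to 87.7 CPM in NAc. miR-1-3p, which heart and skeletal muscle share, had 10526 to 71082 CPM in serum (median 35154), against 9.57 to 16.95 CPM in NAc (median 13.7) (log2 fold change 11.14 ± 0.62 (SE), adjusted p = 3.05e-10, and 9.57 without serum libraries 10 to 12). In serum, library 7 was lowest and library 12 highest. miR-206-3p, which is largely restricted to skeletal muscle, had 3145 to 28717 CPM in serum (median 10893), against 8.27 to 24.7 CPM in NAc (median 13.6) (log2 fold change 9.46 ± 0.68 (SE), adjusted p = 4.1e-09, and 7.72 without serum libraries 10 to 12). miR-133a-3p had 1938 to 11144 CPM in serum (median 4529), against 1.41 to 10.02 CPM in NAc (median 5.43) (log2 fold change 9.50 ± 0.61 (SE), adjusted p = 1.53e-09, and 8.28 without serum libraries 10 to 12). miR-499-5p, made with a heart and slow muscle myosin gene, differed least of the 6, with 76.2 to 194.5 CPM in serum (median 148), against 14.4 to 39.3 CPM in NAc (median 23.5) (log2 fold change 2.19 ± 0.34 (SE), adjusted p = 1.33e-05, and 1.27 without serum libraries 10 to 12). The heart miRNAs miR-208a-3p and miR-208b-3p were too low to test, with 2 and 4 serum counts in all.

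Liver miRNAs divided into one with a difference of the size seen for muscle and others with small ones. miR-122-5p, made almost only by hepatocytes, had 2029.8 to 16669.5 CPM in serum (median 4943), against 0.586 to 92 CPM in NAc (median 1.28) (log2 fold change 7.78 ± 1.42 (SE), adjusted p = 7.77e-05, and 6.18 without serum libraries 10 to 12). The groups did not overlap, though NAc libraries 7 and 9, at 92 and 49.8 CPM, stood above the other NAc libraries at 0.586 to 1.297 CPM. All 4 tested members of 6 were called higher (median 1.62), but 2 of 4 without serum libraries 10, 11 and 12. miR-192-5p and miR-194-5p, which gut and kidney also make, had log2 fold changes of 1.10 and 1.30. The call of miR-192-5p was lost without any 1 NAc library, serum library 10 or serum library 12 (0.47 to 0.997). Without serum libraries 10, 11 and 12 miR-192-5p was at -0.23 (adjusted p = 0.599) and miR-194-5p at 0.76 (adjusted p = 0.0397). miR-148a-3p had 132440.0 to 253734 CPM in serum (median 170797), against 20950.2 to 57114 CPM in NAc (median 35998) (log2 fold change 1.94 ± 0.36 (SE), adjusted p = 9.79e-05), and without these 3 libraries its log2 fold change was 0.66 (adjusted p = 0.0649).

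Leukocyte miRNAs were higher with 1 exception. Of 10 members, 9 were higher in serum and miR-342-3p was lower (log2 fold change -1.51 ± 0.50 (SE), adjusted p = 0.00987, and -2.29 without serum libraries 10 to 12), with a median of 4.14 over the list. Myeloid miR-223-5p had the largest log2 fold change of any name at 100 CPM or more in serum, with 306 to 907 CPM in serum (median 459.6), against 0 to 0.332 CPM in NAc (median 0.1698) (log2 fold change 11.47 ± 0.75 (SE), adjusted p = 1.6e-09, and 10.01 without serum libraries 10 to 12). Its other arm, miR-223-3p, had 286 to 767 CPM in serum (median 361), against 0.242 to 1.33 CPM in NAc (median 0.934) (log2 fold change 8.61 ± 0.48 (SE), adjusted p = 3.24e-10, and 7.69 without serum libraries 10 to 12). miR-142-5p, which blood cells of nearly all lineages make, had 859 to 5515 CPM in serum (median 4399), against 10.2 to 19.8 CPM in NAc (median 14.4) (log2 fold change 7.75 ± 0.46 (SE), adjusted p = 5.83e-10), with library 12 the low one in serum. miR-146a-5p, an inducible brake on innate immune signalling, had a log2 fold change of 4.03, and its seed relative miR-146b-5p 1.26, or 0.26 (adjusted p = 0.263) without serum libraries 10, 11 and 12. Microglia also make several of these miRNAs, and their part in the NAc levels was not tested. Without the 3 serum libraries 7 of 10 were higher.

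**Figure D2:**
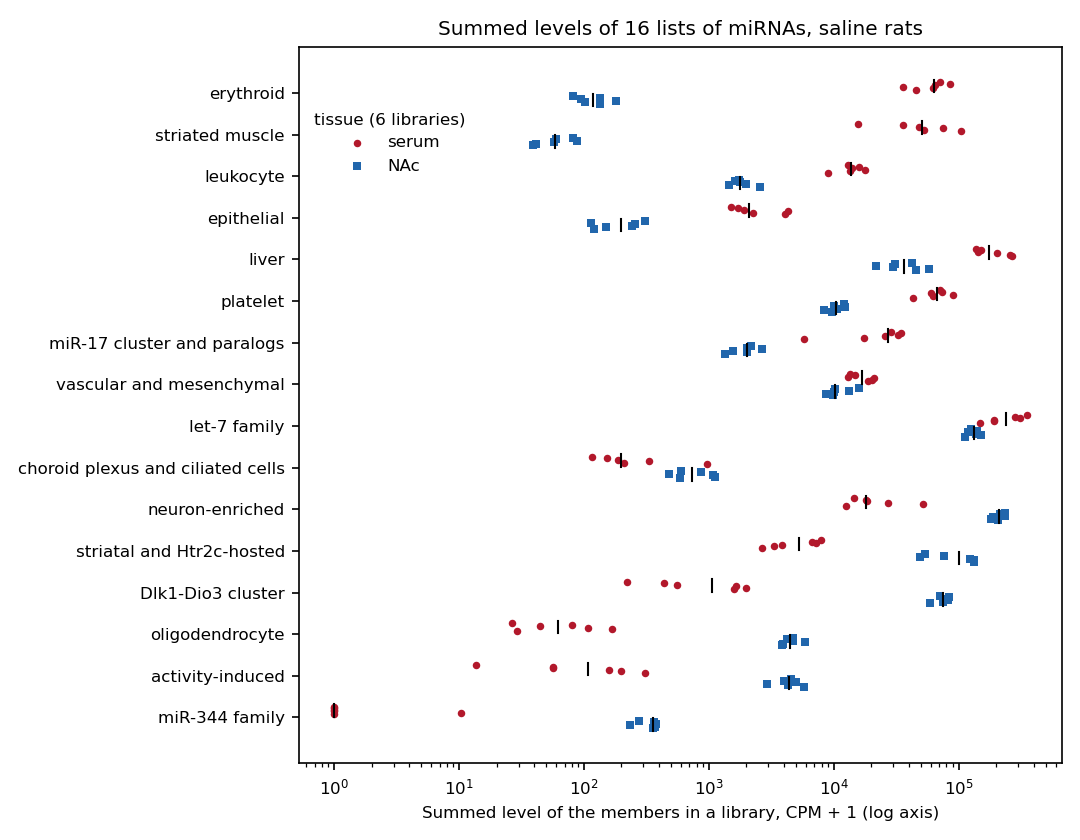
Summed level of the members of 16 lists in each library of saline rats (horizontal, CPM + 1, log axis), with the 6 serum libraries as red circles above the 6 NAc libraries as blue squares in each row. Black ticks mark medians. Red cell and striated muscle miRNAs lie far to the right in serum and far to the left in NAc. Neuronal lists lie lower in serum than in NAc, though the neuron-enriched list still sums to 12547 to 51529 CPM in serum. The let-7 family is close in both.

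Epithelial miRNAs, which bulk brain holds at low levels, were also higher in serum. Of 12 tested members of 13, 11 were higher, and the list had a median of 3.36. miR-429 and miR-200a-3p, of the miR-200 family that keeps epithelial cells epithelial, had 76.2 to 355 CPM in serum (median 102.7), against 0.0811 to 0.531 CPM in NAc (median 0.229) and 222 to 2475 CPM in serum (median 660.2), against 0.649 to 25.02 CPM in NAc (median 3.604). Their log2 fold changes were 8.88 ± 0.62 and 6.49 ± 1.001 (SE, adjusted p = 3.46e-09 and 1.3e-05), and 7.03 and 4.55 without serum libraries 10 to 12. miR-205, a miRNA of squamous and basal epithelium, had a log2 fold change of 5.64 (adjusted p = 5.97e-08). The 1 member called lower, miR-203b-3p, rested on 12 serum counts. It had no call without any 1 NAc library, settings in which the filter kept only 366 to 369 names. miR-375-3p, of endocrine pancreas and other secretory epithelia, had 146 to 999.9 CPM in serum (median 232), against 4.22 to 131 CPM in NAc (median 34.2), and serum library 12 was the high one. Its log2 fold change was 2.63, or 1.33 (adjusted p = 0.0526) without serum library 12 and 0.64 (adjusted p = 0.397) without serum libraries 10, 11 and 12. The exocrine pancreas miRNAs miR-216a-5p, miR-216b-5p and miR-217-5p had no serum count.

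The miR-17 cluster and its paralogs, which drive proliferation and are abundant in blood cells, were listed together with a seed relative, miR-92b-3p. Of 10 tested names of 13 on the list, 9 were higher in serum, and the median was 4.07. Only miR-92b-3p, which shares the seed of miR-25-3p and miR-92a-3p, was lower. miR-25-3p had 2991 to 20735 CPM in serum (median 12303), against 495 to 933 CPM in NAc (median 638) (log2 fold change 3.82 ± 0.41 (SE), adjusted p = 1.97e-07). miR-93-5p had 133 to 4394 CPM in serum (median 4017), against 45 to 128 CPM in NAc (median 76.5) (log2 fold change 4.90 ± 0.61 (SE), adjusted p = 1.19e-06), with library 12 the low one in serum. Platelets and other blood cells hold miR-191a-5p, miR-21-5p and miR-24-3p, which had log2 fold changes of 2.79, 2.27 and 4.03. Of the 7 names on the platelet list, 5 were higher in serum and 1 lower.

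Vascular miRNAs did not move as a group. Of 11 members, 6 were higher in serum, 2 were lower and 3 were not called. The endothelial miR-126a-3p had 3799 to 6424 CPM in serum (median 5386), against 3216 to 4847 CPM in NAc (median 3671) (log2 fold change 0.0937 ± 0.26, SE, adjusted p = 0.731), and the smooth muscle miRNA miR-143-3p had 4136 to 8331 CPM in serum (median 5317), against 5100.3 to 10393 CPM in NAc (median 6002) (-0.59 ± 0.31, adjusted p = 0.0827). In both miRNAs serum and NAc overlapped. Without serum libraries 10, 11 and 12, miR-126a-3p was at -0.89 (adjusted p = 0.00524) and miR-143-3p at -1.83 (adjusted p = 1.31e-05), both called lower. miR-143-3p was also called lower without serum library 12 alone, at -1.01 (adjusted p = 0.0032), serum library 11 or NAc library 11. By comparison, miR-199a-3p and miR-214-3p, which come from 1 transcript of mesenchymal cells, had log2 fold changes of 5.35 ± 0.36 and 7.52 ± 0.57 (SE, adjusted p = 2.41e-09 and 4.78e-09), and 4.47 and 6.53 without those 3 serum libraries. miR-199a-3p had 958 to 4177 CPM in serum (median 2177), against 27.5 to 65.1 CPM in NAc (median 37.9).

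Neuronal miRNAs were lower in serum. All 16 names on the neuron-enriched list, of which miR-129-1-3p and miR-129-2-3p repeat each other's counts, were lower, with a median log2 fold change of -7.11, or -6.99 with the 1 member that had no serum count set at its bound, and for 15 of them every serum library lay below every NAc library. miR-9a-5p, the leading name of NAc and a regulator of neural progenitors and neurons, had 38.1 to 3195 CPM in serum (median 449.5), against 126255 to 178902 CPM in NAc (median 154294) (log2 fold change -7.90 ± 1.04 (SE), adjusted p = 2.22e-06, and -12.56 without serum libraries 10 to 12). In serum it was low in libraries 7, 8 and 9 and higher in 10, 11 and 12. miR-124-3p, the classic neuronal miRNA, had 0 to 23.3 CPM in serum (median 6.498), against 487 to 1335 CPM in NAc (median 909.6) (log2 fold change -7.14 ± 0.63 (SE), adjusted p = 2.2e-08, and -10.50 without serum libraries 10 to 12). miR-129-5p, which acts at synapses, had 6.35 to 417 CPM in serum (median 76.9), against 13681 to 19392 CPM in NAc (median 16609) (log2 fold change -7.36 ± 0.94 (SE), adjusted p = 1.61e-06, and -11.95 without serum libraries 10 to 12). miR-153-3p had 1 serum count in all and 157 to 266 CPM in NAc, so it was 563-fold lower in serum (95% exact interval 101 to 22230.0, counting error only). miR-137-3p had no serum count and 46.2 to 83.96 CPM in NAc, at least 63.9-fold lower in serum against a floor of 3 counts over the 6 serum libraries. Without serum libraries 10, 11 and 12 the list had 16 of 16 lower. Those libraries stood apart by higher levels of brain miRNAs such as miR-9a-5p, so leaving them out is no separate support.

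One neuronal miRNA was an exception in its level. miR-128-3p, which is enriched in neurons and dampens excitability, had 14185, 17662, 17866, 25014, 46801 and 10744 CPM in serum libraries 7 to 12, against 41262, 34176, 32954, 16727, 31202 and 22444 CPM in NAc libraries 7 to 12. The groups overlapped, with serum library 11 above every NAc library, and the log2 fold change -0.85 ± 0.35 (SE), adjusted p = 0.0315 was the smallest difference on its list. It was -2.04 without serum libraries 10 to 12. The call held under 21 of 27 alternatives and was lost, for example, with library size alone as the scaling (-0.43, adjusted p = 0.258) and in libraries 10 to 12 of both tissues (-0.62, adjusted p = 0.319). miR-128-3p made up 85.6 to 97.6% of the summed serum level of the list. The other 15 names summed to 464, 434 and 639 CPM in serum libraries 7 to 9, and 2173, 4728 and 1802 CPM in libraries 10 to 12.

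**Figure D3:**
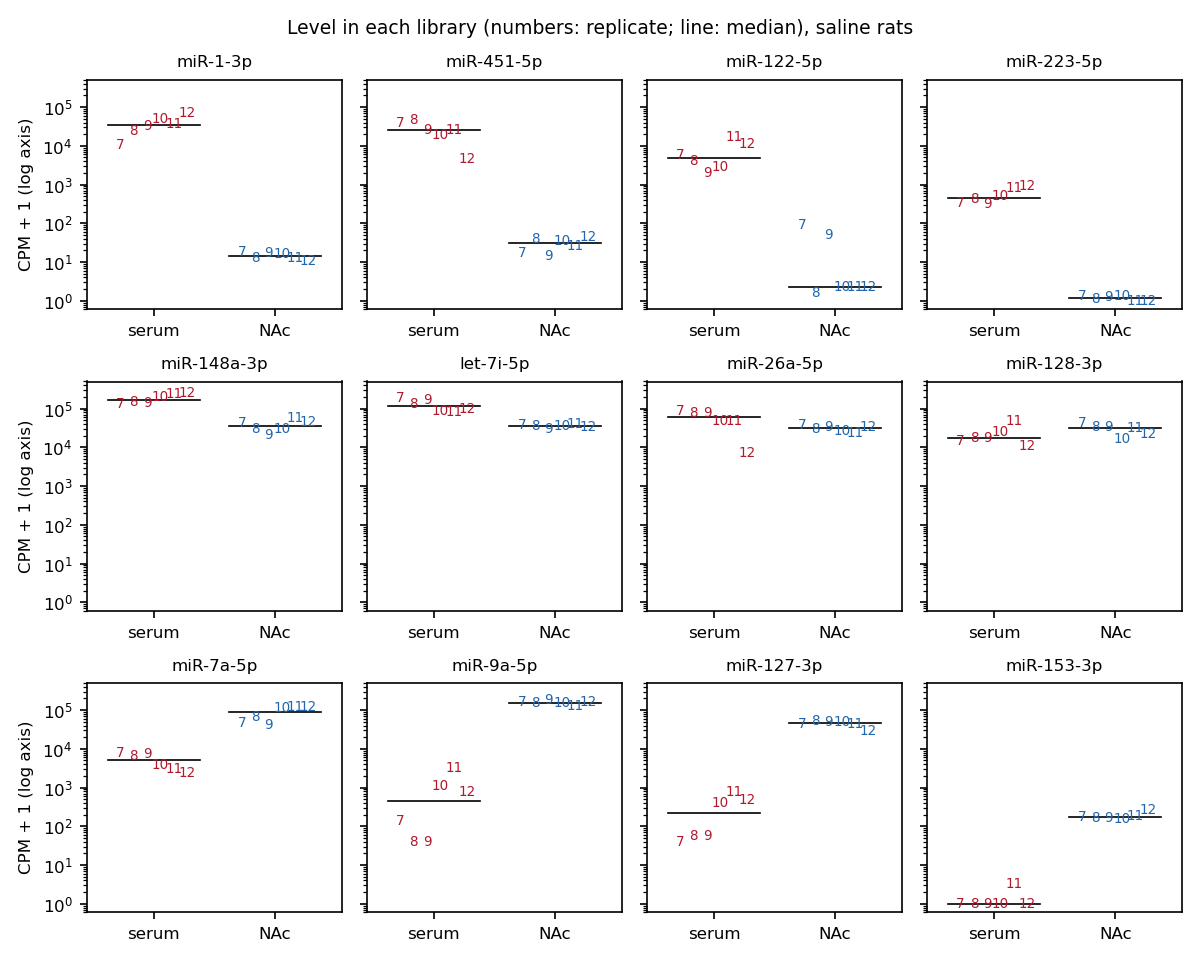
Level of 12 miRNAs in each library of saline rats (vertical, CPM + 1, log axis), with serum left of NAc in each panel. The numbers are the library numbers and the line is the median of 6. The upper row lies far higher in serum, the middle row overlaps or nearly so except for miR-148a-3p and let-7i-5p, and the lower row lies far higher in NAc, with serum libraries 10, 11 and 12 above 7, 8 and 9 for miR-9a-5p and miR-127-3p.

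The striatum is rich in miR-7, a miRNA of neuroendocrine cells that the circular RNA Cdr1as binds. miR-7a-5p, the second name of NAc, had 2429.9 to 7909 CPM in serum (median 5256), against 42062 to 119338 CPM in NAc (median 89242) (log2 fold change -4.36 ± 0.46 (SE), adjusted p = 1.52e-07). It kept a high level in serum, and there libraries 7, 8 and 9 were above 10, 11 and 12, the opposite order to miR-9a-5p. miR-7b had 0 to 184 CPM in serum (median 11.98), against 4458 to 12454 CPM in NAc (median 9206) (log2 fold change -8.31 ± 1.04 (SE), adjusted p = 1.29e-06, and -12.59 without serum libraries 10 to 12), and serum library 11 held most of its 97 serum counts. They differ at 1 base, A10U (miR-7a-5p first, position counted from the 5' end), outside the seed. Of the 7 tested names on the striatal list, 7 were lower, beside 56.8% of all tested names. miR-448-3p, hosted with miR-1298 by the serotonin receptor gene Htr2c, had no serum count, at least 61.3-fold lower in serum, and miR-1298 had 0 to 76.4 CPM in serum (median 19.9), against 974.9 to 2178 CPM in NAc (median 1550.2) (log2 fold change -5.99 ± 0.63 (SE), adjusted p = 1.57e-07, and -8.13 without serum libraries 10 to 12).

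Activity-induced neuronal miRNAs were lower in serum in 5 of 5 cases, beside 56.8% of all tested names. The 5 include miR-134-5p, which is also counted in the Dlk1-Dio3 cluster. miR-132-3p, a CREB target that shapes dendrites, had 0 to 41.98 CPM in serum (median 11.8), against 889 to 2481 CPM in NAc (median 1617) (log2 fold change -7.04 ± 0.54 (SE), adjusted p = 5.41e-09, and -8.78 without serum libraries 10 to 12). miR-212-5p, from the same transcript, had 0 to 39.7 CPM in serum (median 1.83), against 1111 to 2345 CPM in NAc (median 1741) (log2 fold change -8.13 ± 0.78 (SE), adjusted p = 5.98e-08, and -11.65 without serum libraries 10 to 12). The oligodendrocyte miRNAs miR-219a-2-3p and miR-338-3p, which promote myelination, were lower too. miR-219a-2-3p had 4.98 to 62.97 CPM in serum (median 15.9), against 1767 to 2704 CPM in NAc (median 2071) (log2 fold change -6.92 ± 0.51 (SE), adjusted p = 4.1e-09, and -8.33 without serum libraries 10 to 12), and miR-338-3p, with 1 serum count, was 202-fold lower in serum (95% exact interval 36.2 to 7973, counting error only). Of the 6 names on this list 5 were lower, with miR-219b repeating the counts of miR-219a-2-3p. The other, miR-219a-1-3p, was called higher from 36 serum counts (log2 fold change 1.61, adjusted p = 0.00803). That call was lost with RLE factors (0.99, adjusted p = 0.0841) and without serum library 12. miR-219a-1-3p also had no call without any 1 NAc library, where the filter kept only 366 to 369 names. miR-204-5p, a choroid plexus miRNA at 228 to 583 CPM in NAc, was at 6.21 to 46.6 CPM in serum and was the 1 lower name of 4 tested on the list of choroid plexus and ciliated cells. Of the other 3, miR-34c-3p was higher (log2 fold change 1.90, or 0.44 (adjusted p = 0.494) without serum libraries 10 to 12) and 2 were not called, and the list's median was 0.0927. The rodent miR-344 family had 4 of 4 tested names lower, beside 56.8% of all tested names. It summed to 0 to 9.33 CPM in serum and 234 to 377 CPM in NAc.

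The Dlk1-Dio3 cluster, an imprinted locus whose miRNAs are expressed from the maternal copy and mostly in brain after birth, moved in 1 direction. All 45 tested names of 50 were lower in serum, with a median of -5.79, or -5.64 with the 2 members without serum counts set at their bounds. In 41 of them every serum library lay below every NAc library. The cluster summed to 222 to 1978 CPM in serum, against 59562 to 83386 CPM in NAc. In serum it was at 222, 433 and 552 CPM in libraries 7 to 9 and at 1639, 1978 and 1578 CPM in libraries 10 to 12. miR-127-3p, its most abundant member, had 38.1 to 760.4 CPM in serum (median 222), against 28877 to 52702 CPM in NAc (median 46199.9) (log2 fold change -7.60 ± 0.78 (SE), adjusted p = 1.32e-07, and -10.90 without serum libraries 10 to 12). miR-379-5p, near one end of the large miRNA cluster, had 0 to 182 CPM in serum (median 61.7), against 5141 to 8854 CPM in NAc (median 7386) (log2 fold change -6.95 ± 0.76 (SE), adjusted p = 2.46e-07, and -10.11 without serum libraries 10 to 12). miR-758-3p and miR-329-3p were among the 12 largest decreases of all names at 100 CPM or more in NAc, from 1 and 2 serum counts. miR-758-3p was 498-fold lower in serum (95% exact interval 89.4 to 19690.0, counting error only), and miR-329-3p was 419-fold lower in serum (95% exact interval 116 to 3459, counting error only). miR-494-3p was the least changed, at -1.41 ± 0.55 (SE, adjusted p = 0.0245), and -2.19 without serum libraries 10 to 12. The locus lies on rat chromosome 6 (GRCr8), where 71 of the 76 tested names with a RefSeq sequence were lower in serum and 3 were higher, counting each repeated name once, beside 56.8% and 33.7% of all tested names.

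Some of the most abundant miRNAs were not called or differed little. miR-26a-5p, rank 3 in serum, had 7318 to 85951 CPM in serum (median 62032), against 22860.0 to 36706 CPM in NAc (median 31765), with serum library 12 the low one, and the log2 fold change was 0.54 ± 0.42 (SE, adjusted p = 0.231). let-7a-5p had 4240.3 to 14274 CPM in serum (median 9649.7), against 4155 to 7788 CPM in NAc (median 6944) (log2 fold change 0.18 ± 0.32, adjusted p = 0.576). The let-7 family, a set of differentiation miRNAs found in nearly every adult tissue, summed to 148524 to 355443 CPM in serum, against 112237 to 150983 CPM in NAc. Its 14 tested names of 19 were split, with 6 higher, 5 lower and 3 not called, and a median of -0.0168. let-7i-5p was higher, with 81792 to 187492 CPM in serum (median 113308), against 29046 to 39343 CPM in NAc (median 35327) (log2 fold change 1.51 ± 0.32 (SE), adjusted p = 0.000347). let-7f-5p had 15138 to 57479 CPM in serum (median 36194), against 41334 to 62365 CPM in NAc (median 49367) (log2 fold change -0.80 ± 0.32 (SE), adjusted p = 0.0272). let-7e-5p was far lower, with 76.2 to 257 CPM in serum (median 186), against 2346 to 3484 CPM in NAc (median 2699) (log2 fold change -4.25 ± 0.35 (SE), adjusted p = 1.29e-08, and -5.57 without serum libraries 10 to 12). let-7g-5p was just past the threshold (log2 fold change 0.63 ± 0.29 (SE), adjusted p = 0.0491), its sign changed under RLE factors (-0.0515), and the call was lost when any 1 of the 12 libraries was left out (0.19 to 0.63).

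Some relatives that share a seed, and so would act on similar targets, stood on opposite sides. Among tested names with a RefSeq sequence, 40 groups of at least 2 shared a seed, counting each repeated name once. In 6 groups all members were higher in serum, in 18 all were lower, and in 9 some were higher and others lower. Of all tested names 33.7% were higher and 56.8% lower, so names taken without regard to seed would often stand on opposite sides too. The pairs below were chosen for their difference, so they are descriptions. Their sequences differ at 1 or 2 bases outside the seed, shown again in capitals:
miR-27a-3p: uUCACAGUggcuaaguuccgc
miR-27b-3p: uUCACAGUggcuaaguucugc
miR-23a-3p: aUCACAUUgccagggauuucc
miR-23b-3p: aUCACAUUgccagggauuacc
miR-92a-3p: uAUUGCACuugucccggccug
miR-92b-3p: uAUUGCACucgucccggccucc
miR-181d-5p: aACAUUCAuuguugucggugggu
miR-181b-5p: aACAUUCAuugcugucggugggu
let-7a-5p: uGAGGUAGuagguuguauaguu
let-7e-5p: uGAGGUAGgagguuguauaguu

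miR-27a-3p had 1477 to 6415 CPM in serum (median 4408), against 68.5 to 195 CPM in NAc (median 121), while miR-27b-3p, which differs by C19U, had 4282 to 8220.0 CPM in serum (median 5785), against 8265 to 16253 CPM in NAc (median 11531). Their log2 fold changes were 4.78 ± 0.40 and -1.30 ± 0.25 (SE). miR-23a-3p and miR-23b-3p, which differ by U19A and come from the same pair of clusters, were at 1.57 ± 0.40 and -3.26 ± 0.34. The a copies were higher in serum and the b copies lower in both pairs. Without serum libraries 10 to 12, miR-27a-3p was at 4.06, miR-27b-3p at -2.30, miR-23a-3p at 0.91 and miR-23b-3p at -3.85. miR-92a-3p was at 3.88 ± 0.47 and miR-92b-3p, which differs at 2 bases, at -4.94 ± 0.33. miR-92b-3p had 24.1 to 44.5 CPM in serum (median 31.5), against 489.8 to 971 CPM in NAc (median 822). Within the miR-181 family, miR-181d-5p was at 1.75 ± 0.30 and miR-181b-5p, which shares all but 1 of its 23 bases, at -1.60 ± 0.24. let-7e-5p, which differs from let-7a-5p by U9G, was at -4.25 and let-7a-5p at 0.18. Without the same 3 serum libraries, miR-92b-3p was at -5.77, miR-181d-5p at 0.67 and miR-181b-5p at -2.42. Each of these names except let-7a-5p, which was not called, kept its call under all 27 alternatives that were run. The rule by which the authors' counting placed reads that match both members of such a pair is not given in the sources used here.

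**Figure D4:**
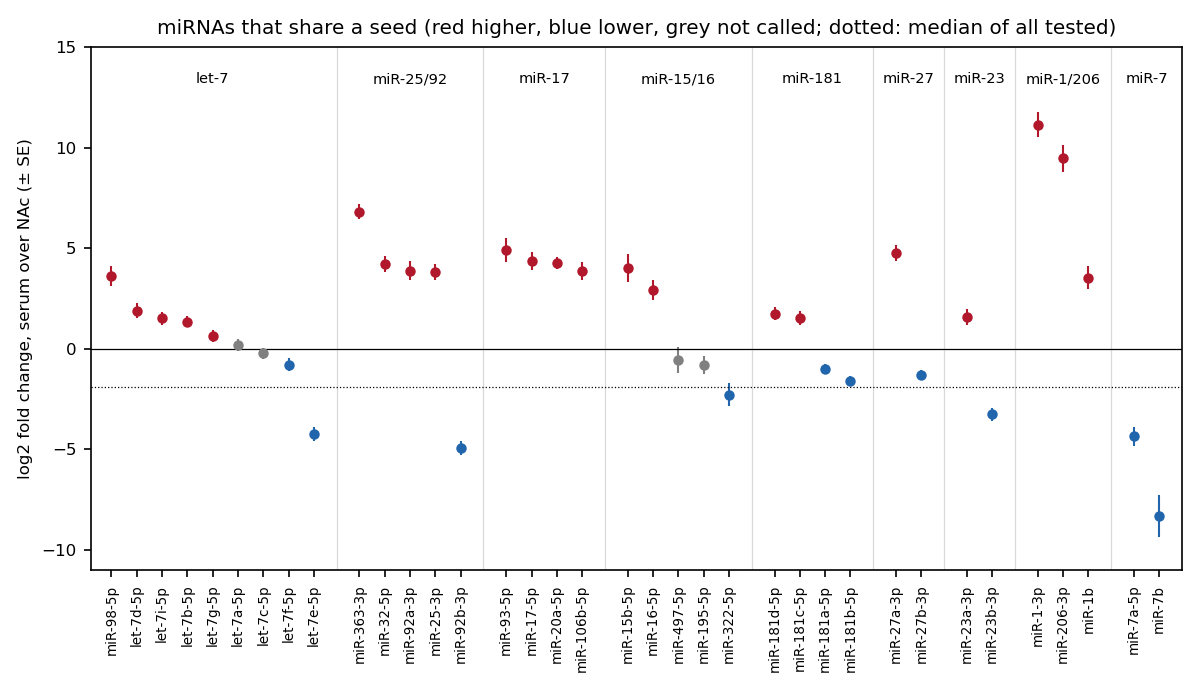
Log2 fold change, serum over NAc, with its standard error for tested miRNAs of 9 groups that share a seed in saline rats. Red points were higher in serum, blue lower and grey not called, and the dotted line is the median of all 424 tested names. The miR-17 and miR-1 groups lie on one side, while the let-7, miR-25 and miR-92, miR-15 and miR-16, miR-181, miR-27 and miR-23 groups spread over both sides.

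Some names had nearly the same counts as another name. Among names with at least 500 counts over all 36 libraries, 31 pairs repeated each other to within 5% of their counts. RefSeq sequences were at hand for both names in 30 pairs, and in 29 the 2 names are reverse complements of each other over 18 to 22 bases. The other, miR-129-1-3p and miR-129-2-3p, shares 19 bases on the same strand. For example, let-7a-5p had 2107849 counts over the 36 libraries and miR-3596a 2107847. Capitals mark the bases that pair with each other in 3 such pairs:
let-7a-5p: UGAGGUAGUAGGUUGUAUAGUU
miR-3596a: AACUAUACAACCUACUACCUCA
miR-9a-5p: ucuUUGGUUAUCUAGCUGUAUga
miR-9b-3p: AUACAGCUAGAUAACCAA
miR-1-3p: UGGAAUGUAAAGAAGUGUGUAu
miR-3571: UACACACUUCUUUACAUUCCAua

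The reads of such names cannot be told apart without strand. The strand rule of the counting is not given in the sources used here. Each pair is named here by its better-known member. All 31 second names were tested, 12 of them called higher and 17 lower, and they took 8.91 to 13.3% of serum counts and 21.3 to 24.7% of NAc counts. With each pair counted once, 132 of 395 names were higher and 226 lower. The hairpins miR-203a and miR-203b mirror each other in the same way: miR-203a-3p and miR-203b-5p had 1297 and 1284 serum counts.

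The arm used from a hairpin also differed between serum and NAc. Of 105 hairpins with both arms counted, 25 (23.8%) had a higher and 26 (24.8%) a lower 5p-to-3p ratio in serum (limma on the log2 ratio, prior count 2). In 14 of these 51 one arm had at most 3 serum counts, where the prior count sets the ratio. Among the 5 smallest p-values toward 5p were miR-137, miR-30e, miR-451, miR-382 and miR-203b, and toward 3p miR-125a, miR-3559, miR-221, miR-322 and miR-203a. Since miR-203a and miR-203b mirror each other, their opposite shifts rest on nearly the same counts and are not separate results. The 105 also hold the mirror hairpins miR-9b, miR-3065 and miR-3557, none of them called. For miR-137 neither arm had a serum count, and edgeR's arm-by-tissue test gave an adjusted p of 1. Of 22 hairpins with a mean of at least 20 counts per arm in each tissue, 7 shifted toward the 5p arm in serum and 10 toward the 3p arm, with p-values adjusted over the 22. The number of pairs tested changed with the libraries left out. Toward 5p, 25 of 105 (23.8%) became 42 of 132 (31.8%) without serum library 7 and 40 of 132 (30.3%) without serum library 12. Without NAc library 7 there were 15 of 79 (19%), and without NAc library 8, 9, 10 or 11 there were 16 of 79 (20.3%). For miR-30e the 5p arm took 88.7 to 94.6% in serum, against 43.6 to 61.4% in NAc (log2 change of the ratio 3.42 ± 0.35 (SE), adjusted p = 4.79e-06). The 5p arm of miR-342 took 7.21 to 85.7% in serum, against 0.887 to 2.91% in NAc (log2 change of the ratio 4.39 ± 0.81 (SE), adjusted p = 0.000577), with serum library 12 the high one. The 5p arm of miR-455 took 80 to 98.6% in serum, against 53.9 to 80.5% in NAc (log2 change of the ratio 2.17 ± 0.62 (SE), adjusted p = 0.0101, and 1.502 without serum libraries 10 to 12).

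Toward 3p, the arm with more counts over the pooled libraries differed between serum and NAc in 3 of these 22 hairpins. The 5p arm of miR-3559 took 22.4 to 52.8% in serum, against 92.2 to 95.6% in NAc (log2 change of the ratio -4.71 ± 0.41 (SE), adjusted p = 1.01e-06), and the groups did not overlap. The 5p arm of miR-145, a smooth muscle hairpin, took 18.97 to 78.95% in serum, against 87.1 to 94.6% in NAc (log2 change of the ratio -3.21 ± 0.60 (SE), adjusted p = 0.00058, and -2.13 without serum libraries 10 to 12). It still led in serum libraries 7, 8 and 9 and lost the lead in 10, 11 and 12. For miR-339 the shares were 12.3 to 44.4% in serum, against 51.3 to 77.1% in NAc (log2 change of the ratio -2.07 ± 0.48 (SE), adjusted p = 0.00292). The same direction held in miR-340, at 45.8 to 69.4% in serum, against 80.3 to 94.1% in NAc, and in miR-15b, at 33.3 to 67.7% in serum, against 76.7 to 88.7% in NAc. The lowest miR-15b share, in serum library 12, rests on 1 and 2 counts, and the other serum libraries were at 46.05 to 67.7%. miR-125a and miR-221 fell short of 20 counts in their minor arm in serum, with 86 counts for miR-125a-3p and 25 for miR-221-5p. They had log2 changes of -4.80 ± 0.34 and -4.14 ± 0.47 (SE, adjusted p = 1.6e-07 and 9.99e-06). miR-451-3p had 58 serum and 3 NAc counts, and edgeR's test did not call miR-451 (adjusted p = 0.538).

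**Figure D5:**
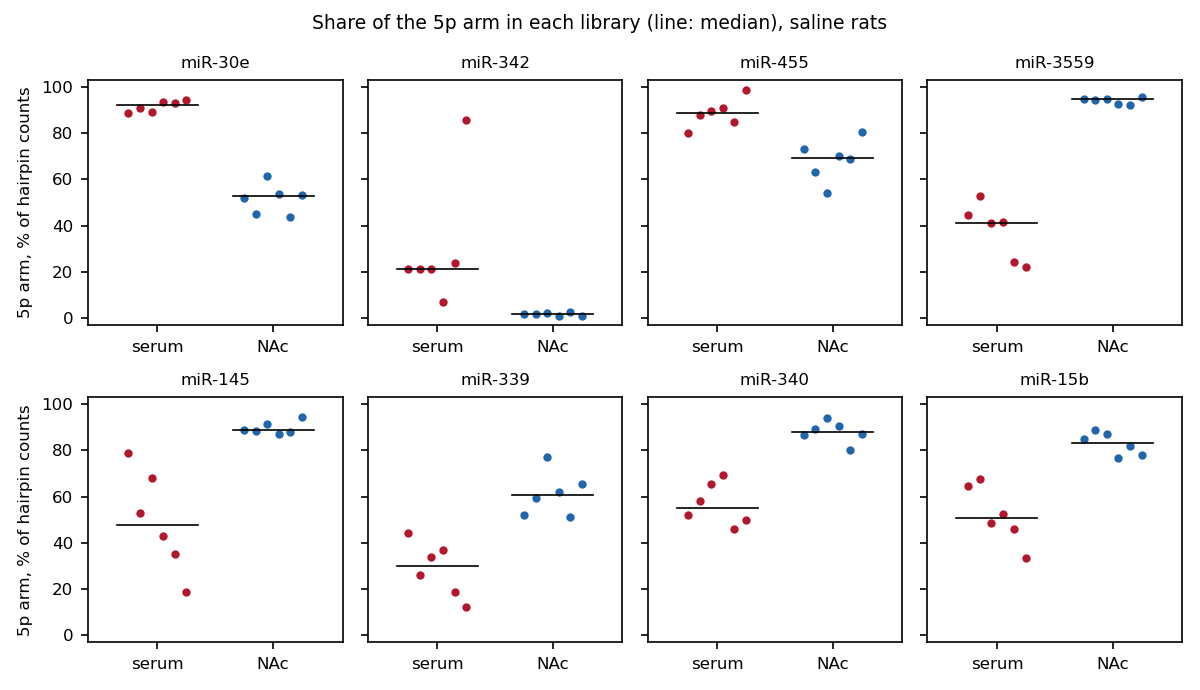
Share of the 5p arm among the counts of both arms of 8 hairpins (vertical, percent) in each library of saline rats, with the 6 serum libraries left of the 6 NAc libraries and medians as lines. The share was higher in serum for miR-30e, miR-342 and miR-455 and lower for the other 5. Serum and NAc do not overlap in miR-30e, miR-342, miR-3559, miR-145, miR-339, miR-340 and miR-15b.

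Serum held fewer kinds of miRNA than NAc even at equal depth. Thinned to 157415 counts, the total of the shallowest library, serum libraries held 336 ± 26.5 names and NAc libraries 390.4 ± 9.11 (SD, n = 6 each). The groups did not overlap, and the exact two-sided permutation test gave p = 0.00216, the smallest that 6 against 6 allows. At full depth serum had 313 to 433 names per library and NAc 642 to 691. The share of counts in the 10 leading names, here with repeated names included, did not differ beyond the spread: it was 64.7 ± 3.77% in serum and 67.4 ± 1.79% in NAc (SD, n = 6 each, exact permutation p = 0.139). Without serum library 7 the difference was -3.63 percentage points (exact permutation p = 0.039). With repeated names counted once the order turned, at 68.4 ± 3.08% in serum and 66.3 ± 2.15% in NAc (exact permutation p = 0.19). Over all libraries 268 names had NAc counts and no serum count, 12 of them with at least 1000 NAc counts, led by miR-325-3p, miR-3099, miR-137-3p and miR-448-3p. In the other direction, 16 names had serum counts and no NAc count, none with more than 56.

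These counts take each repeated name once. Names higher in serum had a median GC content of 45.5% (115 names), names lower 47.8% (208) and all tested with a sequence 47.6% (357), and the median length was 22 bases in each. The letters GGAG, a motif reported in miRNAs of some exosomes, stood in 9 of the higher names (7.83%), 19 of the lower (9.13%) and 33 of all tested (9.24%), searched on the miRNA strand alone. The letters CAUG stood in 6 of the higher names (5.22%), 21 of the lower (10.1%) and 28 of all tested (7.84%). A motif match is a description of the sequence only.

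The heroin rats gave a repeat of the comparison in other animals, with 6 serum and 6 NAc libraries that share none with the saline rats. There, 142 of 439 tested names (32.3%) were higher in serum and 263 (59.9%) lower. Of the names tested in both, 126 were higher in serum in both heroin and saline rats, which is 98.4% of the 128 higher in heroin rats and 88.7% of the 142 higher in saline rats. The corresponding count of lower names was 233, which is 90.3% of 258 in heroin rats and 98.3% of 237 in saline rats. miR-195-3p was the 1 name called in opposite directions, with log2 fold changes of -0.77 in heroin rats and 1.33 in saline rats, but the difference itself was not called (adjusted p = 0.266). For the difference between heroin and saline rats in the serum-NAc change, edgeR's interaction test called 0 of 489 (0%), with 39 at an unadjusted p under 0.05, and DESeq2 called 1. Without 1 library it called 3 (saline serum 8, saline serum 9 or heroin NAc 3), 2 (saline NAc 12) or 1 (saline serum 7 or heroin serum 3).

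Values in heroin rats stand beside those of saline rats for 6 of the miRNAs above. miR-451-5p had 30940.2 ± 17748 CPM in serum and 33.1 ± 14.3 CPM in NAc (SD, n = 6 each), with a log2 fold change of 8.76 in heroin rats beside 9.52 in saline rats. miR-1-3p had 31699 ± 14937 CPM in serum and 18.5 ± 7.08 CPM in NAc (9.66 beside 11.14), and miR-122-5p had 4476 ± 2584 CPM in serum and 17.6 ± 38.9 CPM in NAc (7.12 beside 7.78). miR-9a-5p had 96.8 ± 26.8 CPM in serum and 138584 ± 22126 CPM in NAc (-11.64 beside -7.90), a difference that the interaction test did not call (adjusted p = 0.134). miR-128-3p had 21789 ± 6032 CPM in serum and 35167 ± 10959 CPM in NAc (-1.77 beside -0.85). let-7a-5p was called lower in heroin rats (-0.66, adjusted p = 0.0424) and was not called in saline rats (0.18), and the interaction test did not call the difference. By list, heroin rats had all 16 neuron-enriched names lower, 43 of 44 tested names of the Dlk1-Dio3 cluster lower, and all 4 red cell and all 6 tested muscle names higher. Counts moved more in other lists. The liver list had 2 of 4 higher in heroin rats and 4 of 4 in saline rats. The let-7 family had 4 higher and 8 lower of 14 in heroin rats and 6 and 5 in saline rats, and the vascular list 5 and 4 of 11 in heroin rats and 6 and 2 in saline rats. The miR-148 and miR-152 family had 1 higher and 1 lower of 3 in heroin rats and 2 and 0 in saline rats. These differences between lists were not tested.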

How the data were processed

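The authors deposited raw read counts for each mature miRNA, 1 column per library with no pooling, and these were used unchanged. The TPM values deposited by the authors equal the count over the library's total, times 1e+06, to a relative difference of 4.9e-15 over 30996 values, so they have no length term and are the CPM used here. Per the submitters' processing notes, Bowtie and build rn6 were used. Their roles, the miRNA annotation and the predictor of 155 further names are not stated. No serum library had above 0.134% of its counts in these.

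Counts were tested with edgeR 4.0.16 in R 4.3.3 (quasi-likelihood F test, TMM scaling, filterByExpr at minimum count 10, Benjamini-Hochberg adjustment at 0.05, no replicate block) on the 12 saline libraries, the 12 heroin libraries, or all 24 for the interaction. The SE is the size of the log2 fold change over the square root of F. Arm ratios used limma 3.58.1 on log2 CPM with a prior count of 2. Alternatives used DESeq2 1.42.0, limma-voom, log2(TPM + 1), other scalings and filters, thinned NAc counts, the replicate number as a block, and libraries left out. Detection and leading shares were tested by exact two-sided permutation (SciPy 1.17.1), detection as the mean of 20 seeded draws. Intervals are exact and cover counting error only. Fits were tested on simulated data with known changes. Those data drew both tissues from the NAc mean levels with the same spread, so they do not cover the wider spread of serum libraries.

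Named miRNAs are the 12 largest log2 fold changes per direction at 100 CPM or more, the 10 leading names per tissue, a panel of 29, 3 members of each of 25 lists and 5 arm pairs per direction. Others named as exceptions, seed relatives or at a list's edge were picked with their values in view. Members, lists and tests were chosen with earlier results of these data known. Replicates are the labels' own, and nothing in them says that a number marks 1 animal in both tissues. Same-numbered serum and NAc libraries correlated at -0.0988 to 0.149 in their deviations from the group means, which cannot show whether they share an animal. No replicate pair agreed within sampling noise (smallest chi-square per degree of freedom 46.2 over 30 pairs). If the libraries of a group did not come from separate animals, the p-values measure technical spread only. One predicted name in the rule, with no sequence, is not described.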

Additional observations from a re-analysis of the deposited data

Results flagged for a closer look

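Each named miRNA with at least 30 counts was searched, within the 6 libraries of a tissue, for a highest or lowest library whose gap to its neighbour relative to the range passes Dixon's 95% critical value for 6 samples. Of 159 such groups, 20 held one, where chance gives about 1 in 20 groups. In serum, 11 were found, 5 of them in library 12, 3 in library 10, 2 in library 11 and 1 in library 7. miR-100-5p was at 3729 CPM in serum library 7, against 541 to 1467 CPM in the other 5. miR-133a-3p was at 11144 CPM in serum library 10, against 1938 to 5243 CPM in the other 5. miR-146a-5p was at 5142 CPM in serum library 10, against 1906 to 2772 CPM in the other 5. miR-203a-3p was at 964 CPM in serum library 10, against 296 to 441 CPM in the other 5. miR-7b was at 184 CPM in serum library 11, against 0 to 14.9 CPM in the other 5. miR-9a-5p was at 3195 CPM in serum library 11, against 38.1 to 1068 CPM in the other 5. let-7g-5p was at 20323 CPM in serum library 12, against 47597 to 63022 CPM in the other 5. miR-375-3p was at 999.9 CPM in serum library 12, against 146 to 348 CPM in the other 5. miR-132-5p was at 29.9 CPM in serum library 12, against 2.07 to 9.33 CPM in the other 5. miR-34c-5p was at 811 CPM in serum library 12, against 72.2 to 188 CPM in the other 5. miR-142-5p was at 859 CPM in serum library 12, against 3849.7 to 5515 CPM in the other 5.

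In NAc, 9 were found, 4 of them in library 12 and 3 in library 10. miR-126a-3p was at 4847 CPM in NAc library 7, against 3216 to 3741 CPM in the other 5. miR-344b-1-3p was at 49.8 CPM in NAc library 10, against 117 to 151 CPM in the other 5. miR-217-5p was at 70.8 CPM in NAc library 10, against 3.07 to 7.02 CPM in the other 5. miR-216b-5p was at 2.12 CPM in NAc library 10, against 0 to 0.484 CPM in the other 5. miR-344b-5p was at 92.1 CPM in NAc library 11, against 47.2 to 56 CPM in the other 5. miR-153-3p was at 266 CPM in NAc library 12, against 157 to 188 CPM in the other 5. miR-329-3p was at 467 CPM in NAc library 12, against 191.6 to 258 CPM in the other 5. miR-127-3p was at 28877 CPM in NAc library 12, against 44351 to 52702 CPM in the other 5. miR-29b-3p was at 309 CPM in NAc library 12, against 127 to 174 CPM in the other 5.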

How the results depend on the processing

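The counts of names higher and lower in serum in saline rats, 143 and 241, stayed within 1.5 times of these values under every alternative run except that lower names fell to 159 (113 higher) with NAc libraries thinned to serum depth, where fewer names are tested. The range over single libraries left out was 124 to 149 higher and 207 to 273 lower, of 366 to 473 names tested. As shares of the tested names these were 29 to 34.4% and 56.6 to 57.7%. Without serum libraries 10, 11 and 12 there were 137 and 297 of 504 tested. In libraries 7 to 9 of both tissues there were 148 and 252 of 450, and in libraries 10 to 12 125 and 252 of 463, both settings chosen after seeing the data. In heroin rats, thinning gave 147 lower names of 292 tested. Single libraries left out there gave 138 to 156 higher and 225 to 280.0 lower, of 425 to 470 tested. The interaction, 0 names, was 1 with DESeq2 and 0 to 3 with single libraries left out. Arm pairs, 25 and 26 of 105 tested, were 7 and 10 of 22 with a mean of at least 20 counts. Without serum libraries 10, 11 and 12 they were 47 and 52 of 146. With single libraries left out they were 15 to 42 and 19 to 38, of 79 to 132 tested. The difference in names detected, -54.2, ranged over -59.6 to -45.99 with single libraries left out. The difference in the share of the 10 leading names, -2.69 percentage points, turned to 2.14 with repeated names counted once, neither past the threshold, and ranged over -3.63 to -1.595 with single libraries left out, past it without serum library 7.

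The labels do not say whether the replicate numbers pair the samples. For that reason the numbers were not used as pairs. Same-number correlations were not all over 0.1, and 2 of 6 serum libraries correlated best with their own number. Serum and NAc levels need not vary together between animals, so these correlations cannot show whether samples are paired. With the number as a block, 134 names were higher and 238 lower in saline rats, 136 and 260 in heroin rats, 0 in the interaction, and 23 and 24 arm pairs. Of 88 named miRNAs tested, 68 kept their direction and side of the threshold under every alternative. Signs changed for let-7g-5p (-0.052 with DESeq2, -0.0515 with RLE factors, -0.0525 in libraries 10 to 12), miR-126a-3p (-0.47 with DESeq2, -0.89 without serum libraries 10, 11 and 12), let-7a-5p (-0.50 with DESeq2), and, without those 3 libraries, miR-192-5p (-0.23) and miR-99a-5p (-0.28). The cause of these changes was not tested. Depth limits the serum side: 145 of 424 tested names had under 30 serum counts in all.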

Other observations

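Other groups of miRNAs, not described above, gave these values in saline rats. The miR-99, miR-100 and miR-125 names are processed from shared clusters with let-7 members. Of the 5, 4 were lower in serum. miR-99b-5p had 152 to 492 CPM in serum (median 296), against 6194 to 10870.5 CPM in NAc (median 7905) (log2 fold change -5.07 ± 0.39 (SE), adjusted p = 5.21e-09, and -6.55 without serum libraries 10 to 12), miR-100-5p had 541 to 3729 CPM in serum (median 862), against 6468 to 12115 CPM in NAc (median 9642) (log2 fold change -3.15 ± 0.48 (SE), adjusted p = 1.1e-05), and miR-125a-5p and miR-125b-5p had log2 fold changes of -4.28 and -4.47. The other, miR-99a-5p, was higher (1.22), but at 0.98 (adjusted p = 0.0589) without serum library 10, 0.66 (adjusted p = 0.062) without serum library 12 and -0.28 (adjusted p = 0.36) without serum libraries 10, 11 and 12. The miR-29 family, which represses collagen and other matrix genes, was lower in 3 of 3 names, beside 56.8% of all tested names. miR-29a-3p was at -0.86, miR-29c-3p at -1.94 and miR-29b-3p at -3.60. In the miR-30 family 3 of 5 were lower, close to the 56.8% of all tested names. The 1 called higher, miR-30e-5p (0.65), kept that call under 8 of 27 alternatives. miR-30a-5p had 2834 to 4987 CPM in serum (median 4510.1), against 10337 to 16205 CPM in NAc (median 14704) (log2 fold change -2.13 ± 0.26 (SE), adjusted p = 9.36e-07, and -2.83 without serum libraries 10 to 12).

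Other relatives also differed in their values. In the miR-15 and miR-103 group, miR-16-5p had 129.6 to 2586 CPM in serum (median 1552), against 90.2 to 199.9 CPM in NAc (median 162) (log2 fold change 2.91 ± 0.49 (SE), adjusted p = 3.7e-05), with serum library 12 the low one, and miR-103-3p had 176 to 1031 CPM in serum (median 799.7), against 7174 to 9889 CPM in NAc (median 8876) (log2 fold change -3.89 ± 0.37 (SE), adjusted p = 5.6e-08). miR-26b-5p was higher in serum (2.01, adjusted p = 0.000532), beside miR-26a-5p, which was not called. miR-152-3p was higher (2.48, adjusted p = 2.63e-06) and miR-148b-3p was not called (-0.60, adjusted p = 0.141), though it was called lower without any 1 of 8 libraries (-1.07 to -0.82). miR-34c-5p, of multiciliated cells, had 72.2 to 811 CPM in serum (median 115), against 98.9 to 628 CPM in NAc (median 375) and was not called. It was called lower without serum library 12, at -2.49 (adjusted p = 0.000168). miR-217-5p had no serum count and 4.61, 5.36, 3.07, 70.8, 7.02 and 3.49 CPM in NAc libraries 7 to 12. It had no call without any 1 NAc library, where it was too low to test.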
